A study of Mus musculus with 96 samples.

Results

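Chromosome 5 of the mouse, without the amplified stretch at its start, was followed in 94 single nuclei of a pancreatic cancer cell line. It comprised 272 of the 4906 genomic bins of the deposited table, all bins of chromosome 5 that begin at or after chr5:14159646 (build mm9, positions counted from 1). The bins reached the end of the chromosome, chr5:14159646-152537259, and covered 138.4 Mb or 90.7% of its length. The other 19 bins of chromosome 5 form the raised start. The border between them came from an earlier division of the median profile of the same nuclei. Over all 94 nuclei the last bin before it stood at a median of 6.09 copies (2.02 to 13.4) and the first bin after it at 2.05 copies (1.90 to 8.48).

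Nuclei of the line KPC1199EGFP, a C57BL/6 pancreatic tumour line that expresses EGFP, were stained with DAPI and sorted by DNA content. They came from adherent, untreated cells at passage 9, so they share 1 culture and are no replicates of a condition. The gates were labelled 2N (47 nuclei), 2N+ (35 nuclei) and 4N (12 nuclei), and 1 bulk library each was made from the 2N and 2N+ gates. What sets 2N+ apart from 2N is not spelled out in the labels.

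Mouse chromosomes are acrocentric, so chromosome 5 has 1 long arm and a gain of that arm is a gain of the whole chromosome. Cells with an unstable karyotype gain or lose whole chromosomes when these are missegregated in mitosis, and gain or lose parts of them after DNA breaks. Among its genes are those of the growth factor HGF, the morphogen SHH, the receptor tyrosine kinases FGFR3, PDGFRA, KIT, KDR, FLT1 and FLT3, the transcription factor PDX1, the kinase CDK8 and the repair protein BRCA2. In the order of the 1268 protein-coding genes of chromosome 5 in assembly GRCm38.p6, Hgf is the 86th, Pdgfra, Kit and Kdr follow each other as the 436th to the 438th, and Cdk8 and Brca2 lie near the end as the 1219th and the 1260th. That assembly is not the one of the bins, so no gene was placed in a bin.

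Each deposited value is a ratio to the genome-wide level of its own library, and equal values run over long stretches of bins. Ratios were turned into copies with 1 multiplier per nucleus, the one that brings the autosomes closest to whole numbers. An anchored scale, on which chromosomes 4, 7, 9, 10 and 13 have a median of 2 copies, was set beside it. The scales gave chromosome 5 a different whole copy number in 4 nuclei, numbers 2 to 5 of the 4N gate, whose multipliers were 3.45 to 4.70. Multipliers in the 2N gate were 2.20 to 2.70. A ratio cannot show whether a whole genome was doubled. The depth of each library is unknown, and the intervals given with shares are exact Clopper-Pearson intervals at 95% that cover counting of nuclei only.

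Chromosome 5 had 2 or 3 copies in every nucleus of the 2N and 2N+ gates, and 2 copies were the more frequent state in both. Of the 2N nuclei, 41 lay between 1.96 and 2.10 copies, with a median of 2.03 (SD 0.0299). The other 6, nuclei 6, 7, 11, 18, 29 and 39, had 2.92, 2.95, 2.96, 2.92, 2.87 and 2.90 copies. The groups did not overlap, and no 2N nucleus lay between 2.10 and 2.87 copies. A trisomy of chromosome 5 was thus counted in 12.8% of the 2N nuclei (interval 4.83% to 25.7%). Over all autosomes of these nuclei, 43.4% of the chromosomes had 3 or more copies, and 10 of the other 18 autosomes had 3 or more copies in more 2N nuclei than chromosome 5.

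Of the 2N+ nuclei, 22 had 1.89 to 2.13 copies (median 2.03) and 13 had 2.83 to 3.02 copies (median 2.91). The lowest of the 13 was nucleus 32 and the highest was nucleus 1. Again no nucleus lay in between, and the gap was 0.696 copies wide. The share with 3 copies was 37.1% (interval 21.5% to 55.1%), where 54.9% of all autosomes in these nuclei had 3 or more copies. The intervals of the 2N and 2N+ shares overlap between 21.5% and 25.7%, and the difference was not tested because the nuclei of each gate come from 1 culture. No nucleus of either gate had 1 copy or 4 copies, and 0 of 47 and 0 of 35 allow shares of up to 7.55% and 10% with 4 copies.

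In the 4N gate the count depended on the scale. By the multiplier 6 of 12 nuclei (50%, interval 21.1% to 78.9%) had 3 or more copies, where 65.4% of all autosomes did. On the anchored scale only nuclei 8 and 11 did, with 2.74 and 2.85 copies (16.7%, interval 2.09% to 48.4%), where 45.6% of the autosomes had 3 or more. The 4 nuclei that changed were at 3.06, 4.10, 3.97 and 4.04 copies by the multiplier and at 2.10, 2.03, 1.96 and 2.01 copies anchored. Their chromosome 5 was thus at the level of chromosomes taken as disomic, in nuclei of the gate labelled 4N.

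**Figure D1:**
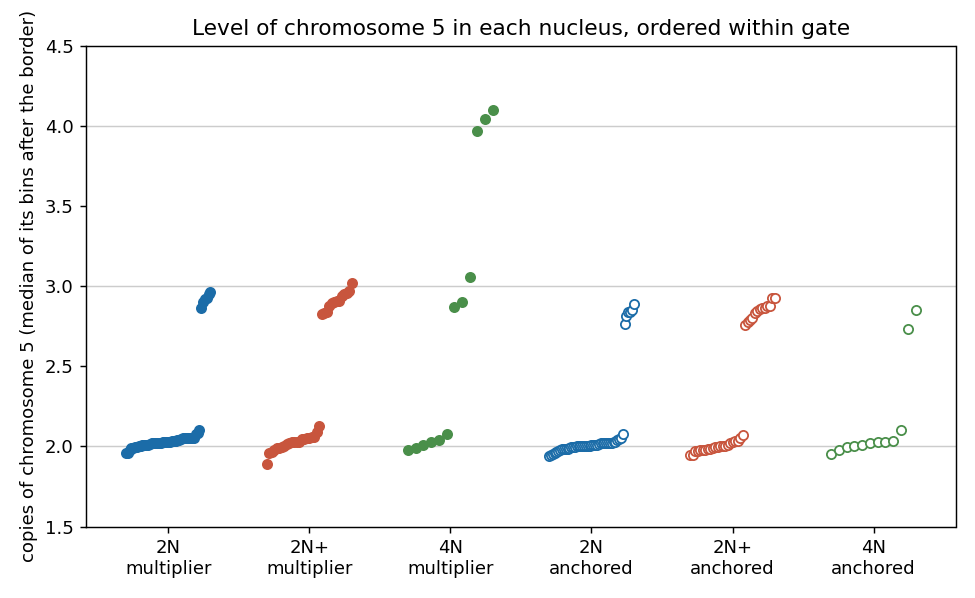
Copies of chromosome 5 in each nucleus, as the median of 272 bins. Each point is 1 nucleus, ordered by level within its gate. Filled points are on the multiplier scale and open points on the anchored scale. Points gather near 2 and just under 3 copies in every gate, and the 4 nuclei of the 4N gate near 3 and 4 copies by the multiplier lie near 2 when anchored.

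The ratio of chromosome 5 to chromosome 4, which needs no multiplier, separated the same nuclei. It was 0.970 to 1.07 in the 41 disomic 2N nuclei and 1.39 to 1.53 in the 6 trisomic ones. For 2N+ nuclei it was 0.973 to 1.04 and 1.39 to 1.49, and the 2 trisomic 4N nuclei had 1.37 and 1.42. Disomic nuclei thus straddled a ratio of 1, while the anchored level of the trisomic nuclei stayed under 3 copies in all 3 gates, at most 2.89, 2.93 and 2.85.

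The raised start of the chromosome was followed across these groups, since it sits on the same chromosome. The mean of its 19 bins among 2N nuclei was 5.69 to 8.40 copies beside 2 copies of the rest (median 6.82) and 9.80 to 10.5 beside 3 (median 9.97), with no overlap. The start stood at 3.37 times the rest of the chromosome in the median disomic nucleus and at 3.40 times in the median trisomic nucleus. Among 2N+ nuclei the start had 4.45 to 8.95 copies (median 6.83) beside 2 copies and 5.70 to 10.2 (median 8.54) beside 3 copies, and these ranges overlapped. The median ratio of start to rest was there 3.35 in disomic and 2.91 in trisomic nuclei. Of the 13 trisomic 2N+ nuclei, numbers 5, 7 and 13 had ratios of 3.40, 3.43 and 3.25, and the other 10 had 2.02 to 3.05. Trisomic 2N nuclei thus had start and rest higher by about the same factor, and most trisomic 2N+ nuclei had a start that was lower relative to the rest than in the median disomic nucleus.

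**Figure D2:**
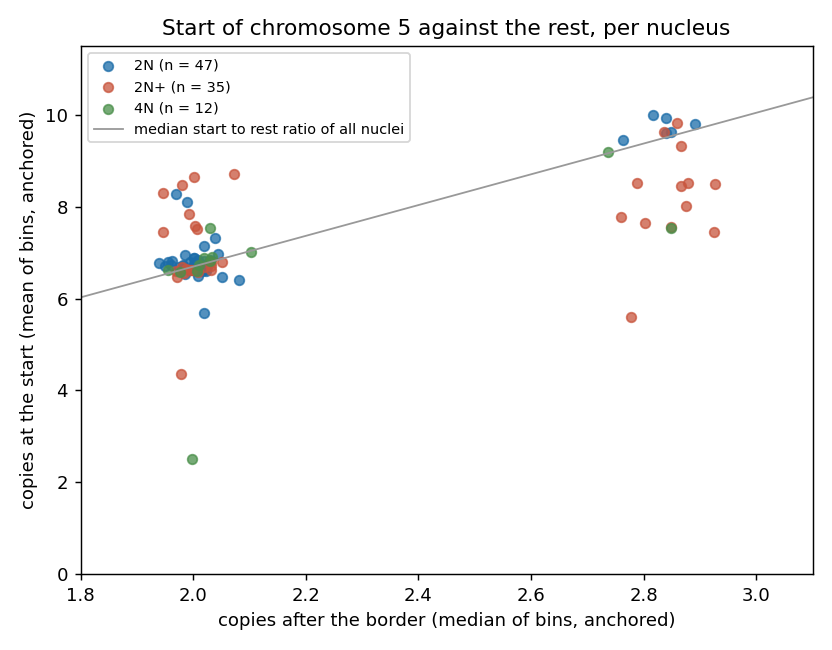
Copies at the start of chromosome 5 (mean of 19 bins) against copies after the border (median of 272 bins), both anchored, for each nucleus by gate. The grey line is the median ratio of start to rest over all nuclei. The 6 trisomic 2N nuclei lie on or near it, most trisomic 2N+ nuclei lie below it, and the lowest start, 2.51 copies, belongs to 4N nucleus 7.

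Trisomy of chromosome 5 on the anchored scale was seen only in nuclei with 3 or more copies of chromosome 15. All 21 trisomic nuclei had 3 copies of chromosome 15. This was not particular to chromosome 15, since chromosomes 2, 3, 8 and 19 were also at 3 or more copies in all 21. Those 4 chromosomes were so in 23, 41, 36 and 40 of the 41 disomic 2N nuclei. Of the 22 disomic 2N+ nuclei, 18 had 3 or more copies of chromosome 15. Among the 2N nuclei, chromosome 15 was at 3 or more copies in 6 of 6 trisomic and 6 of 41 disomic nuclei. Put the other way, 6 of the 12 2N nuclei with a gained chromosome 15 had 3 copies of chromosome 5 (50%, interval 21.1% to 78.9%), and 0 of the other 35 did. In the 2N+ gate, where 31 of 35 nuclei had gained chromosome 15, 13 of the 31 were trisomic for chromosome 5 (41.9%, interval 24.6% to 60.9%) and 0 of the other 4. Among 4N nuclei these counts were 2 of 6 and 0 of 6.

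The states of other chromosomes were set beside those of chromosome 5. All 6 trisomic 2N nuclei had 4 copies of chromosome 2, which 0 of the 41 disomic 2N nuclei had. Chromosome 2 was changed in part in all 47 2N nuclei, so this is the median of its bins. In the 2N+ gate 6 of 13 trisomic and 4 of 22 disomic nuclei had 4 copies of it, and 1 disomic nucleus had 5. Neither trisomic 4N nucleus had 4. In 5 of the 6 trisomic 2N nuclei, chromosome 19 was at 4 copies and chromosome 18 at 2. Of the 41 disomic 2N nuclei, 1 had 4 copies of chromosome 19 and 16 had 2 copies of chromosome 18. The set of 4 copies of chromosome 19, 2 of chromosome 18 and 3 of chromosome 15 was found in 2 of the 13 trisomic 2N+ nuclei, numbers 5 and 7, and in 4N nucleus 11. Chromosome 16, at 2 copies in all 6 trisomic 2N nuclei, was at 3 in 7 and at 4 in 2 of the 13 trisomic 2N+ nuclei. Over the 11 chromosomes compared, the 21 trisomic nuclei held 14 different sets of copy numbers, and the most frequent set was shared by 3 nuclei (2N nuclei 6, 7 and 39). Trisomy of chromosome 5 thus occurred in several karyotypes of this culture.

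Most 2N nuclei carried chromosome 5 as 1 unbroken level after the border. A single value ran over all 272 bins in 30 of 47 nuclei of the 2N gate (63.8%, interval 48.5% to 77.3%), where 68.6% of all autosomes had 1 value. It did so in 8 of the 35 2N+ nuclei (22.9%, interval 10.4% to 40.1%), against 57% of their autosomes. Of the 12 4N nuclei, 4 had a single value (33.3%, interval 9.93% to 65.1%), against 50.4% of their autosomes. The 2N and 2N+ intervals do not overlap, but they cover counting only. The difference was not tested because the nuclei of each gate come from 1 culture. Breakpoints over all autosomes had a median of 18 in 2N and 20 in 2N+ nuclei. Their means were 17.6 and 24.9, and the 2N+ mean includes nuclei 22, 24 and 31 with 89, 81 and 68. A single value was found in 26 of 41 disomic and 4 of 6 trisomic 2N nuclei, and in 7 of 22 disomic and 1 of 13 trisomic 2N+ nuclei. The most values on 1 chromosome were 8, in 2N+ nucleus 31, which had 68 breakpoints over all autosomes.

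**Figure D3:**
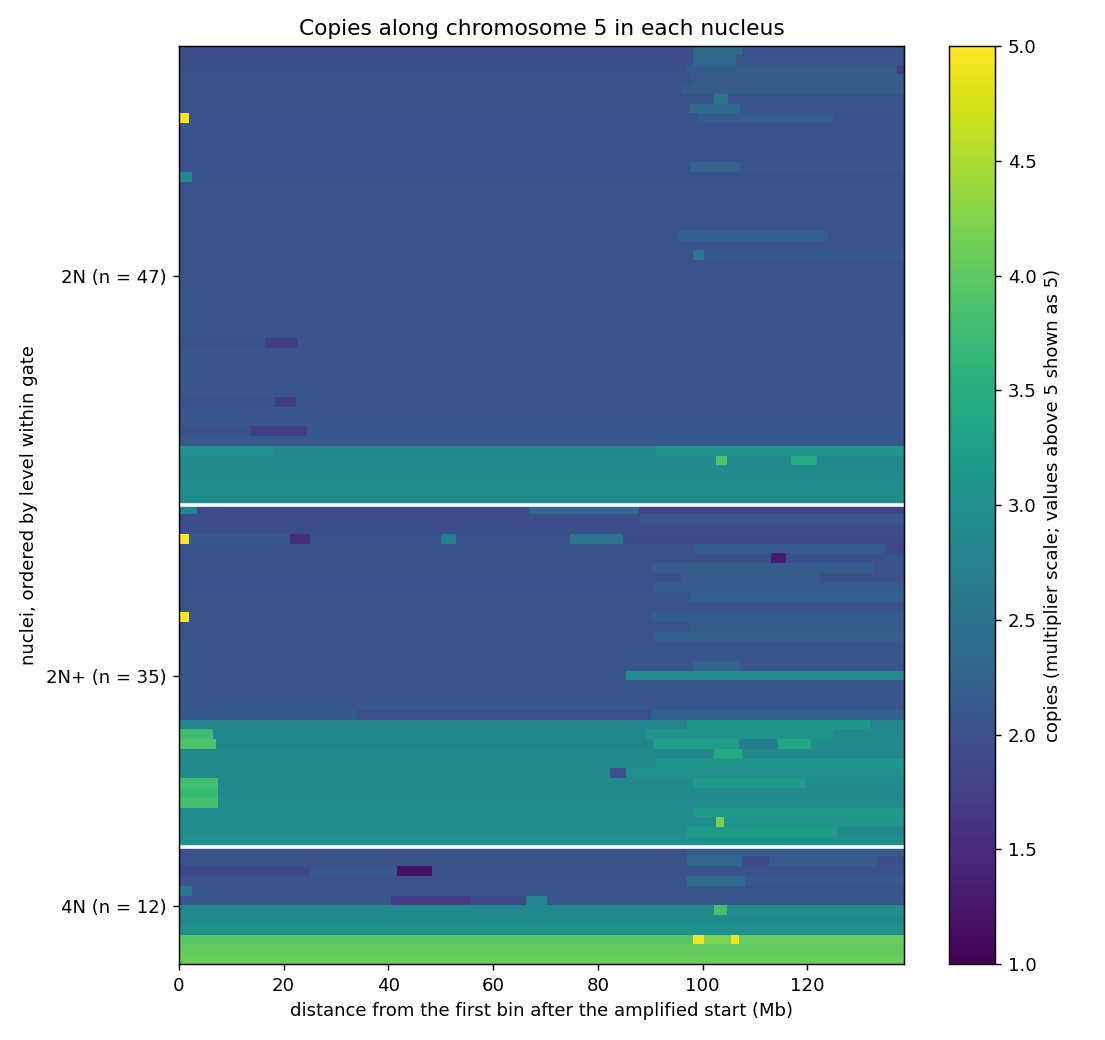
Copies along chromosome 5 in each of the 94 nuclei, by gate and ordered by level. The x axis is the distance in Mb from the first bin after the amplified start, and colour gives copies on the multiplier scale, with values above 5 shown as 5. Broad bands at 2 and 3 copies run the length of the chromosome, short raised segments lie at the left edge, and many nuclei are slightly raised toward the right end.

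Steps of 0.5 copies or more between neighbouring bins were found in 5 of 47 2N nuclei (10.6%, interval 3.55% to 23.1%), where 20.2% of the autosomes had such a step. The 2N+ gate had 13 of 35 (37.1%, interval 21.5% to 55.1%) against 23.6% of its autosomes, and the 4N gate 5 of 12 (41.7%, interval 15.2% to 72.3%) against 40.4%. A step was found in more nuclei than on chromosome 5 on 6 other autosomes among 2N nuclei and on 2 among 2N+ nuclei. These counts do not allow for chromosome length. Steps per 100 bins and nucleus were higher than on chromosome 5 on 7 other autosomes for 2N, 7 for 2N+ and 12 for 4N. Of the nuclei with a step, 2 (2N), 8 (2N+) and 1 (4N) had a raised level that ran past the border. The 23 nuclei with a step held 28 segments that lay 0.5 copies or more from the median of their own chromosome 5, of which 25 were above it and 3 below. The segments spanned 3 to 109 bins, and 11 of them began at the border. Of the 23 nuclei, 6 (2N+ nuclei 22, 24 and 31, 4N nuclei 7, 9 and 10) had 64 to 98 breakpoints over the autosomes, more than the 60 set as a limit. The part of such nuclei in the steps was not tested. Without them the count was 20 segments in 17 nuclei, 19 above and 1 below, and the share of nuclei with a step was 31.3% for 2N+ and 22.2% for 4N.

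A partial change of the chromosome, with under 90% of the bins at 1 whole copy number, was present in 1 nucleus. In 2N+ nucleus 27 chromosome 5 was at 2.05 copies over 163 bins and at 2.94 copies over the last 109 bins, chr5:99266653-152537259, a stretch of 53.3 Mb. Its main copy number covered 59.9% of the bins, and the nucleus had 14 breakpoints in all. No 2N nucleus (0 of 47, interval up to 7.55%) and no 4N nucleus (0 of 12, interval up to 26.5%) had a partial change. Over all autosomes the share changed in part was 13.8% for 2N, 11.6% for 2N+ and 19.7% for 4N. Apart from short segments, chromosome 5 was thus gained whole in 21 nuclei and over a long distal stretch in nucleus 27.

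The step of nucleus 27 lay at a bin where 2N+ nucleus 28 also changed. Nucleus 28 had 3 copies of chromosome 5 (2.90) with a short stretch of 1.99 copies over 6 bins, chr5:96371312-99266652, and returned to 3.01 copies from chr5:99266653 on. Its loss ended at the bin where the gain of nucleus 27 began. In 2N+ nucleus 31 a raised segment of 2.57 copies ended 1 bin earlier, at chr5:98791171.

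Next to the border, 80 of the 94 nuclei fell to the level of the rest exactly at chr5:14159646 (2N 44 of 47, 2N+ 26 of 35, 4N 10 of 12). The border was drawn from the median profile of these same nuclei, so a fall of many nuclei there follows from that choice. In 3 nuclei (2N nucleus 5, 2N+ nucleus 11 and 4N nucleus 11) the start ended 1 bin earlier. A raised level ran past the border in the other 11 (2N 2, 2N+ 8, 4N 1).

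In 3 of those 11 nuclei the level of the amplified start itself ran 3 bins further, to chr5:15924369. It was 5.28 copies in 2N nucleus 15, 7.99 in 2N+ nucleus 10 and 8.48 in 2N+ nucleus 31. In 2N+ nuclei 10 and 31 the whole stretch chr5:1-15924369, 22 bins, had this 1 value. In 2N nucleus 15 the start stepped down from 10.3 to 7.91 and then to 5.28 copies. In 3 further nuclei, less than 1 extra copy lay over 4 to 6 bins past the border: 2.89 copies on 2.01 in 2N nucleus 24, 2.77 on 1.89 in 2N+ nucleus 22 and 2.57 on 2.04 in 4N nucleus 7. In 4N nucleus 7 the start had the same 2.57 copies over all 23 bins, so the high level seen in other nuclei was absent there. These nuclei had 5, 89 and 64 breakpoints over the autosomes.

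The remaining 5 were 2N+ nuclei 8, 9, 15, 19 and 26, and all 5 were trisomic. Their chromosome 5 stood at 3.83, 3.79, 3.71, 3.88 and 3.75 copies over the first 12 to 14 bins and then fell to 2.94, 2.91, 2.91, 2.84 and 2.84 copies. In nuclei 8, 9 and 15 the raised stretch ended at the same bin, chr5:21462837, after 7.30 Mb, in nucleus 19 it ended 1 bin and in nucleus 26 2 bins earlier. Before the border the 5 nuclei had 9.85 to 10.98 copies over the first 5 bins, to chr5:5715257. In 4 of them the next 14 bins had 7.76 to 7.83 copies. Disomic 2N nucleus 15 also had 10.3 copies to chr5:5715257 and then 7.91, so this form was not particular to the 5. Nuclei without a raised level past the border were not compared for it. The 5 trisomic 2N+ nuclei all had 4 copies of chromosome 3 and 3 of chromosomes 2, 8, 15, 16, 18 and 19. Their breakpoints numbered 17 to 30. The same states of these 7 chromosomes were found in 6 of the 22 disomic 2N+ nuclei, in 3 of 41 disomic 2N nuclei and in 1 of 10 disomic 4N nuclei, none of which had the raised stretch. No trisomic nucleus of the 2N gate (0 of 6) or the 4N gate (0 of 2) had this raised stretch, and it was in 5 of 13 trisomic and 0 of 22 disomic 2N+ nuclei.

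**Figure D4:**
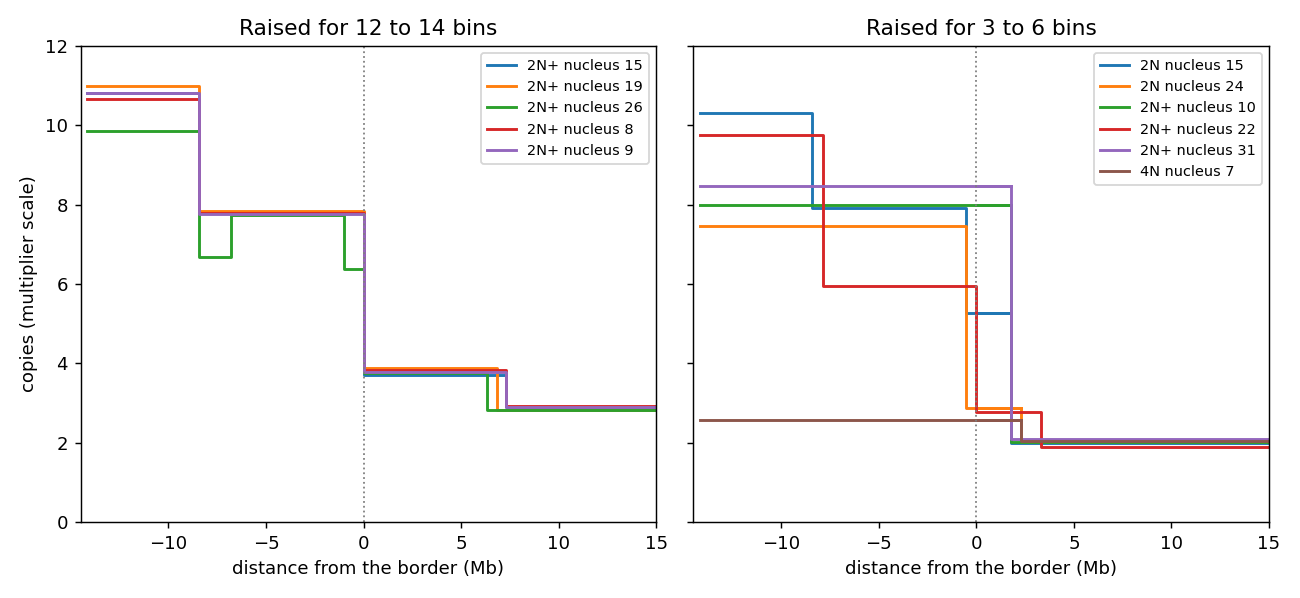
Copies on the multiplier scale against the distance in Mb from the border (dotted line at 0) in the 11 nuclei whose raised start ran past it. The left panel shows the 5 trisomic 2N+ nuclei, which run nearly on top of each other and hold about 1 extra copy for 12 to 14 bins. The right panel shows the 6 others, whose levels before and after the border differ from each other.

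A short gain recurred in the distal part of the chromosome. It was present in 5 nuclei of all 3 gates and spanned 3 to 12 bins (1.40 to 5.52 Mb), with 3 bins in common, chr5:116566273-117965240. The raised level was 2.55 copies on 2.00 in 2N nucleus 35, 3.91 on 2.90 in 2N nucleus 39, 4.20 on 2.96 in 2N+ nucleus 7, 3.45 on 2.88 in 2N+ nucleus 14 and 3.83 on 2.87 in 4N nucleus 8. The rise over the median of the chromosome was thus 0.554 to 1.24 copies, and 4 of the 5 nuclei were trisomic for chromosome 5. That count depends on the fixed cut, which the same relative rise passes more easily on 3 copies than on 2. Smaller rises covered the same bins in disomic nuclei, among them 2N nucleus 14 (2.37 copies on 2.00) and 4N nucleus 12 (2.40 on 2.03). Trisomic 2N+ nucleus 19 also had one (3.24 on 2.84). The 5 nuclei above the cut had 18 to 27 breakpoints, so none was among the 6 with the most.

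Further segments were off the median of their chromosome. A raised segment over chr5:111914872-114232069 had the same 5 bins in 2N nucleus 21 (2.60 copies on 2.03) and 4N nucleus 4 (4.92 on 3.97 by the multiplier, 2.43 on 1.96 anchored). 4N nucleus 4 had another over chr5:119317194-120677521 (4.90 copies). The other 2 losses were 1.18 copies over 13 bins, chr5:55499273-62384097, in 4N nucleus 10 and 1.31 copies over 6 bins, chr5:126909724-129758610, in 2N+ nucleus 24, both nuclei with many breakpoints (75 and 81). 2N nucleus 39 and 2N+ nucleus 19 each had a further raised stretch of 3.44 and 3.40 copies, over chr5:130723332-135863470 and chr5:128326900-134457905.

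Steps were chained into 1 position where each lay within 3 bins of the one before, so that a position can be wider than 3 bins and can hold both ends of a segment. The 44 steps fell at 16 positions, of which 5 were shared by 3 or more nuclei. These began between chr5:15924370 and 17468674 (6 nuclei, all steps down), between 20483985 and 21462838 (5 nuclei, all of the 2N+ gate and all down), between 98791172 and 99266653 (3 nuclei), between 116103253 and 121621869 (7 nuclei, 6 steps up and 7 down over 12 bins) and between 126909724 and 130723332 (3 nuclei, over 8 bins). Without the 6 nuclei with many breakpoints 10 positions remained, 3 of them shared. The shared positions thus lie close to the amplified start or at chr5:98791172 and beyond. The position from 98791172 to 99266653 had 2 steps up and 1 down. It joins the start of the gain of nucleus 27, the end of the loss of nucleus 28 and the end of a raised segment of nucleus 31. No nucleus was 0.5 copies or more off its own median in 105 of the 272 bins.

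Smaller shifts were frequent in the distal part. A step up of at least 0.1 and under 0.5 copies lay between chr5:83317881 and the end in 18 of the 35 2N+ nuclei, in 10 of 47 from the 2N gate and in 3 of 12 from the 4N gate. Their median size was 0.215 copies, far from a whole copy. Such a small step up lay within 3 bins of chr5:110993088 in 20 nuclei (2N 8, 2N+ 9, 4N 3). This bin was picked because the most nuclei had a step up within 3 bins of it, which favours a high count. The most nuclei were 0.1 copies or more above their own median over 4 bins, chr5:116566273-118412998, 39 of 94 (2N 12, 2N+ 22, 4N 5). This stretch holds the bins common to the short raised segments described above. Such shifts of a fraction of a copy within 1 nucleus are not whole copy changes, and their source was not tested.

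**Figure D5:**
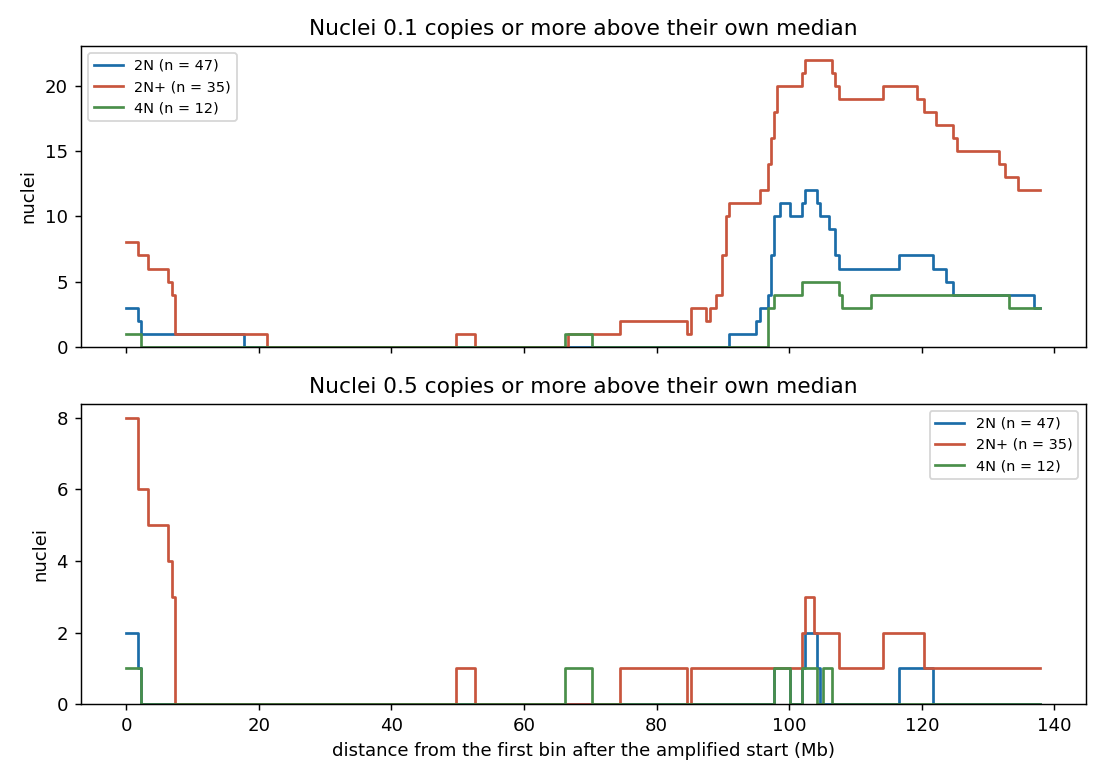
Number of nuclei in each gate that lay 0.1 copies or more (top) or 0.5 copies or more (bottom) above their own median, along the distance in Mb from the first bin after the amplified start. The counts are 0 or near it in the middle of the chromosome, reach 8 of the 2N+ nuclei next to the border, and in the top panel rise to 22 of the 2N+ and 12 of the 2N nuclei in the distal part.

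The distal region was summed up from chr5:116103253 on, 75 bins, as its mean minus the median of the bins before it. This start is the position past chr5:83317881 where the most nuclei had a step of 0.5 copies or more. It was thus picked from the same data, which favours a difference. The median 2N nucleus showed a difference of 0 copies (0 to 0.216, mean 0.0347, SD 0.0614). For 2N+ nuclei the median was 0.119 copies (-0.0678 to 0.881, mean 0.114, SD 0.163), and for 4N nuclei it was 0.0114 copies (0 to 0.179, mean 0.0660, SD 0.0789). More than 0.05 copies were reached by 13 of the 2N, 22 of the 2N+ and 5 of the 4N nuclei. The ranges of the gates overlap. Among 2N+ nuclei it exceeded 0.05 copies in 10 of 13 trisomic and 12 of 22 disomic ones. The highest value, 0.881, was that of nucleus 27 with its part gain. Over the last 68 bins, a start not taken from the steps, the mean differences were 0.0302 (2N), 0.109 (2N+) and 0.0567 copies (4N).

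All 47 2N nuclei were at their own median over the middle of the chromosome, chr5:42144302-99266652, while some 2N+ and 4N nuclei were not, among them 4N nucleus 9 with 1.70 and 2.76 copies and 2N+ nucleus 31 with 2.73 and 2.57 copies in parts of it. The bins of chr5:28913828-42144301 had a mean more than 0.1 copies under the median of the nucleus in 3 2N nuclei, which had segments of 1.74 (nucleus 17), 1.72 (nucleus 27) and 1.76 copies (nucleus 33) that all covered chr5:32399535-36225579.

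The bulk libraries were set beside the nuclei of their gate. The 2N bulk ratio was 0.897 and the mean of the 47 nuclei 0.899 (SD 0.0967). For 2N+ these were 0.901 and 0.928 (SD 0.153, n = 35). The SDs are wide because disomic and trisomic nuclei are mixed, with mean ratios of 0.865 (disomic) and 1.14 (trisomic) for 2N and of 0.815 and 1.12 for 2N+. Each gate has 1 bulk library, so its error is unknown. The bulk profiles also held steps. On the anchored scale the 2N bulk had 2.35 copies over the first 10 bins, to chr5:19518343, and 2.10 after it, and its nuclei had a mean of 2.14 (SD 0.319) and 2.12 (SD 0.285) over these stretches. The 2N+ bulk had 2.46 copies over the first 9 bins, 2.25 to chr5:91145032 and 2.46 after it, where the means of its nuclei were 2.58 (SD 0.734), 2.32 (SD 0.422) and 2.40 (SD 0.440). Within single 2N+ nuclei the level after chr5:91145032 minus the level before it had a median of 0.0713 copies (-0.0595 to 0.786, SD 0.140, n = 35), and it was above 0.05 copies in 22 nuclei and under -0.05 in 1.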

How the data were processed

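DNA of single nuclei and of 2 bulk samples was amplified with the SeqXE kit and sequenced after adapter ligation, per the labels' protocols. The unit of the deposited values is a linear ratio to each library's own level, and a library's mean over bins was 0.994 to 1.095. The submitters' processing notes name Bowtie 1.0 and mm9. How bins were made, corrected for GC and segmented is not given in the sources used here. Depth is unknown, so precision rests on the number of nuclei. Runs of equal values are segment means, which hide changes shorter than a segment.

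For each nucleus, multipliers between 1.5 and 6 (spacing 0.05) were tried, and the one with the least mean squared deviation of autosomal bins from whole numbers was kept. The level is the median of the bins times the multiplier, rounded for counts. A breakpoint is any change of value between neighbouring autosomal bins (tolerance 1e-09). Nothing was tested across gates, since nuclei of 1 culture are not replicates. Bins and lists were chosen with earlier results of these data known. The text names each nucleus with a partial change, step positions in 3 or more nuclei and the nuclei with the lowest and highest levels. By the multiplier the lowest were 2N nucleus 45 (1.96 copies), 2N+ nucleus 22 (1.89) and 4N nucleus 1 (1.98). The highest were 2N nucleus 11 (2.96), 2N+ nucleus 1 (3.02) and 4N nucleus 3 (4.10). Other nuclei were named after their values were seen. Scripts used Python 3.11.15, numpy 2.4.6, pandas 2.3.3 and scipy 1.17.1 and were tested on simulated data. Not every gene of the fixed list is reported here. The alternatives were other scales, step sizes, shares of bins and nuclei left out.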

Additional observations from a re-analysis of the deposited data

How the results depend on the processing

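Of 100 alternative values for 25 results, 91 kept within the interval, the SD over nuclei or 1.5 times the count, and 9 moved. Some of the 91 could not move, so the tally does not show how firm the results are. No 2N nucleus had more than 60 breakpoints. No 2N or 2N+ nucleus was left out for its multiplier or its distance from whole numbers. All multipliers of these gates already lay between 2 and 3. The 4N level, 2.47 copies and 2.02 anchored, counted as kept because the SD was 0.870. In the 4N gate 3 or more copies were counted in 16.7% of nuclei, not 50%, both on the anchored scale and with the multiplier limited to 2 to 3. With steps of 0.3 copies or more, 23.4% of 2N nuclei had a step in place of 10.6%. Step positions numbered 32 with exact bins and 10 without the nuclei with more than 60 breakpoints, against 16. Positions shared by 3 or more nuclei were 3 in place of 5 with exact bins, with steps of 0.7 copies or more, and without those nuclei. Steps in all were 28 at 0.7 copies or more, against 44. A partial change was called in 5 of 35 2N+ nuclei at 95% of bins, against 1 of 35 at 90%. This counted as kept, since 14.3% lies just within the interval of the main value, which runs to 14.9%. Leaving out nuclei by breakpoints for the shares of 3 copies, the single-value shares and the distal region, by a multiplier above 3, or 2N+ nucleus 27 for the distal region, the anchored scale for steps and the other distal border were chosen after seeing the data. No paired analysis was possible because equal numbers in different gates do not mark related nuclei.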
